A study of Mus musculus with 48 samples.

Results

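The 9 genes described here, called members, were followed through mouse liver spheroids before and after engraftment in the eye: Pck1, G6pc, Fbp1, Pcx, Slc2a2, Slc37a4, Pklr, Pygl and Gys2. They were chosen by name, as the liver forms of enzymes and transporters of glucose production, glycolysis and glycogen, and are 9 of the 46517 genes in the count files. The libraries came from 16 samples of mouse tissue labelled WT Albino, strain C57BL/6N, from adult animals, each sequenced as 3 technical libraries by a bulk Smart-seq3 protocol. Endogenous liver of donor mice (n = 3), freshly isolated primary hepatocytes from donor livers (n = 3), in vitro spheroids made from such hepatocytes (n = 2), naive iris without a graft (n = 3) and explants (n = 5) were compared. An explant is a spheroid that had settled on the iris in the anterior chamber of the eye (ACE), dissected 2 months after transplantation together with the iris around it. The hepatocyte suspension was enriched for hepatocytes and not pure, and the culture medium of the spheroids held insulin and dexamethasone. The labels do not say which samples came from separate animals or cultures, so p-values measure the spread between samples, which may in part be technical.

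In fasting, hepatocytes make glucose. Pyruvate carboxylase (Pcx) and cytosolic phosphoenolpyruvate carboxykinase (Pck1) turn pyruvate into phosphoenolpyruvate, fructose bisphosphatase (Fbp1) acts further up the path, and glucose 6-phosphate is carried into the endoplasmic reticulum by Slc37a4 and cleaved there by glucose 6-phosphatase (G6pc). Glucose crosses the plasma membrane through GLUT2 (Slc2a2). Liver pyruvate kinase (Pklr) catalyzes the last step of glycolysis, in the opposite direction, while glycogen synthase (Gys2) stores glucose and glycogen phosphorylase (Pygl) releases it. Glucagon and glucocorticoids are known to induce Pck1 and G6pc transcription and insulin to repress it, and Pklr is a known target of the glucose-responsive factor encoded by Mlxipl.

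The total count per sample ran from 2718518 to 3573075 in hepatocytes, from 3523171 to 3871404 in livers, 3247327 and 3447643 in the spheroids, from 4596550 to 4881817 in irises and from 5449589 to 6789648 in explants. The labelled tissues carried their markers: the summed level of 12 hepatocyte markers was 17220 to 19010 TPM (transcript abundance scaled by gene length and depth) in livers, 17980 to 21910 in hepatocytes, 18350 and 19670 in spheroids, and 1897 to 2282 in irises, where no hepatocyte marker was at 0. In turn, 6 pigment cell markers summed to 9324 to 9799 TPM in irises and to 554 to 566 TPM in livers. The part of this low signal of each tissue in the libraries of the other in the values below was not tested. In bulk samples, fewer cells of a type and less RNA per cell cannot be told apart.

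Explants are mixtures, so iris RNA was taken off as the study describes. The iris fraction times the mean iris TPM was subtracted, and the rest was divided by the share that is not iris. The iris fractions solved from the deposited tables were 82%, 68%, 81%, 72% and 59% in explants 1, 2, 4, 5 and 6. Corrected explants are given throughout with the same formula for all 5, because the deposited column of explant 4 was made otherwise. TPM is scaled by gene length, so levels of different members can be compared.

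Pck1 and Pcx were the members that changed most clearly in culture, and bases before the most upstream start site of each are shown since both fell. These are bases of the 250 before the RefSeq start site (GRCm38.p6), cut where the first exon in the count files begins, 5′ to 3′ on the plus strand. Capitals mark matches to 6 motifs searched on both strands. These were ACGTCA of the cAMP response element, TGTTTAC as bound by forkhead factors, TGTTTTG of insulin response elements, TATAAA of the TATA box, CACGTG of the E-box, and CAAAGTCCA as bound by Hnf4a.
Pck1, chr2:173152823-173153047: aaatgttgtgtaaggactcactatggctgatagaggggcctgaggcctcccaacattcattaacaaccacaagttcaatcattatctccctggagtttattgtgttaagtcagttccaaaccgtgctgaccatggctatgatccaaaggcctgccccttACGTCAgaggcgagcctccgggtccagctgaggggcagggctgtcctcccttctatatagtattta
Pcx, chr19:4510222-4510471: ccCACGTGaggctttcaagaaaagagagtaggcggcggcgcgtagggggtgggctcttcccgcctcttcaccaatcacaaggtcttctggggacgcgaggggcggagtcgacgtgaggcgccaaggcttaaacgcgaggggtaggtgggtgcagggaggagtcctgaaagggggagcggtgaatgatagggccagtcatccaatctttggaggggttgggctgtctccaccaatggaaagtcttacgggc
The ACGTCA in the Pck1 window, the core of a cAMP response element, began 91 bases before the start site, and the same letters are in 6.47% of 32851 mouse promoter windows of 250 bases. The CACGTG in the Pcx window began 248 bases before the start site and is in 6.02% of windows. Pcx has a second RefSeq start site downstream, whose window (chr19:4594069-4594318, not shown) held none of the 6 motifs. Which Pcx start site was used in these samples was not tested. ACGTCA was also upstream of Slc37a4 on the other strand, at 1 position that lies in 2 overlapping windows, and G6pc held TGTTTTG (5.56% of windows) and TATAAA (12.4%). Of the 12 windows found for 8 members, 7 held at least 1 match, those 2 overlapping windows included. A match is a description of letters and not of a bound site.

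Pck1 (ENSMUSG00000027513, mm10 chr2:173153048-173159273) had the widest range of the 9. It was at 1659, 700 and 1065 TPM in the 3 livers, at 982, 503 and 984 TPM in hepatocytes, and at 91.6 and 254 TPM in the spheroids. Both spheroid values lay below every liver and hepatocyte value. The log2 fold change of spheroids against hepatocytes was -2.53 ± 0.55 (SE; adjusted p = 0.0141, edgeR quasi-likelihood test), a 5.79-fold fall, and -2.79 ± 0.53 against liver (adjusted p = 0.00817).

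Pcx (chr19:4510472-4621752) was the other member that fell in spheroids. It was at 410, 391 and 511 TPM in livers, 496, 415 and 364 TPM in hepatocytes and 127 and 195 TPM in spheroids, again without overlap. Its log2 fold change was -1.70 ± 0.29 against hepatocytes (adjusted p = 0.00587) and -1.55 ± 0.27 against liver (adjusted p = 0.00616). Both falls stayed past the thresholds in each of the 15 alternative fits of either comparison.

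Thus 2 of the 9 members were called lower and none higher in spheroids against hepatocytes, where a call needs both an adjusted p under 0.05 and a log2 fold change past 1 in either direction. Of the 12247 genes tested, 9.11% were called lower and 8.13% higher. Against liver, the same test also called 2 members lower and none higher, beside 11% and 8.24% of 12959 genes. The 2 falls are results on Pck1 and Pcx, and nothing particular to the group of 9 is read from the count. DESeq2 called 2 members in either comparison, and an unadjusted p under 0.05 was reached by 3. Both comparisons rest on the same 2 spheroid samples. The median log2 fold change of the members was -0.47 against hepatocytes and 0.08 against liver, beside 0.01 over all genes in either case.

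**Figure D1:**
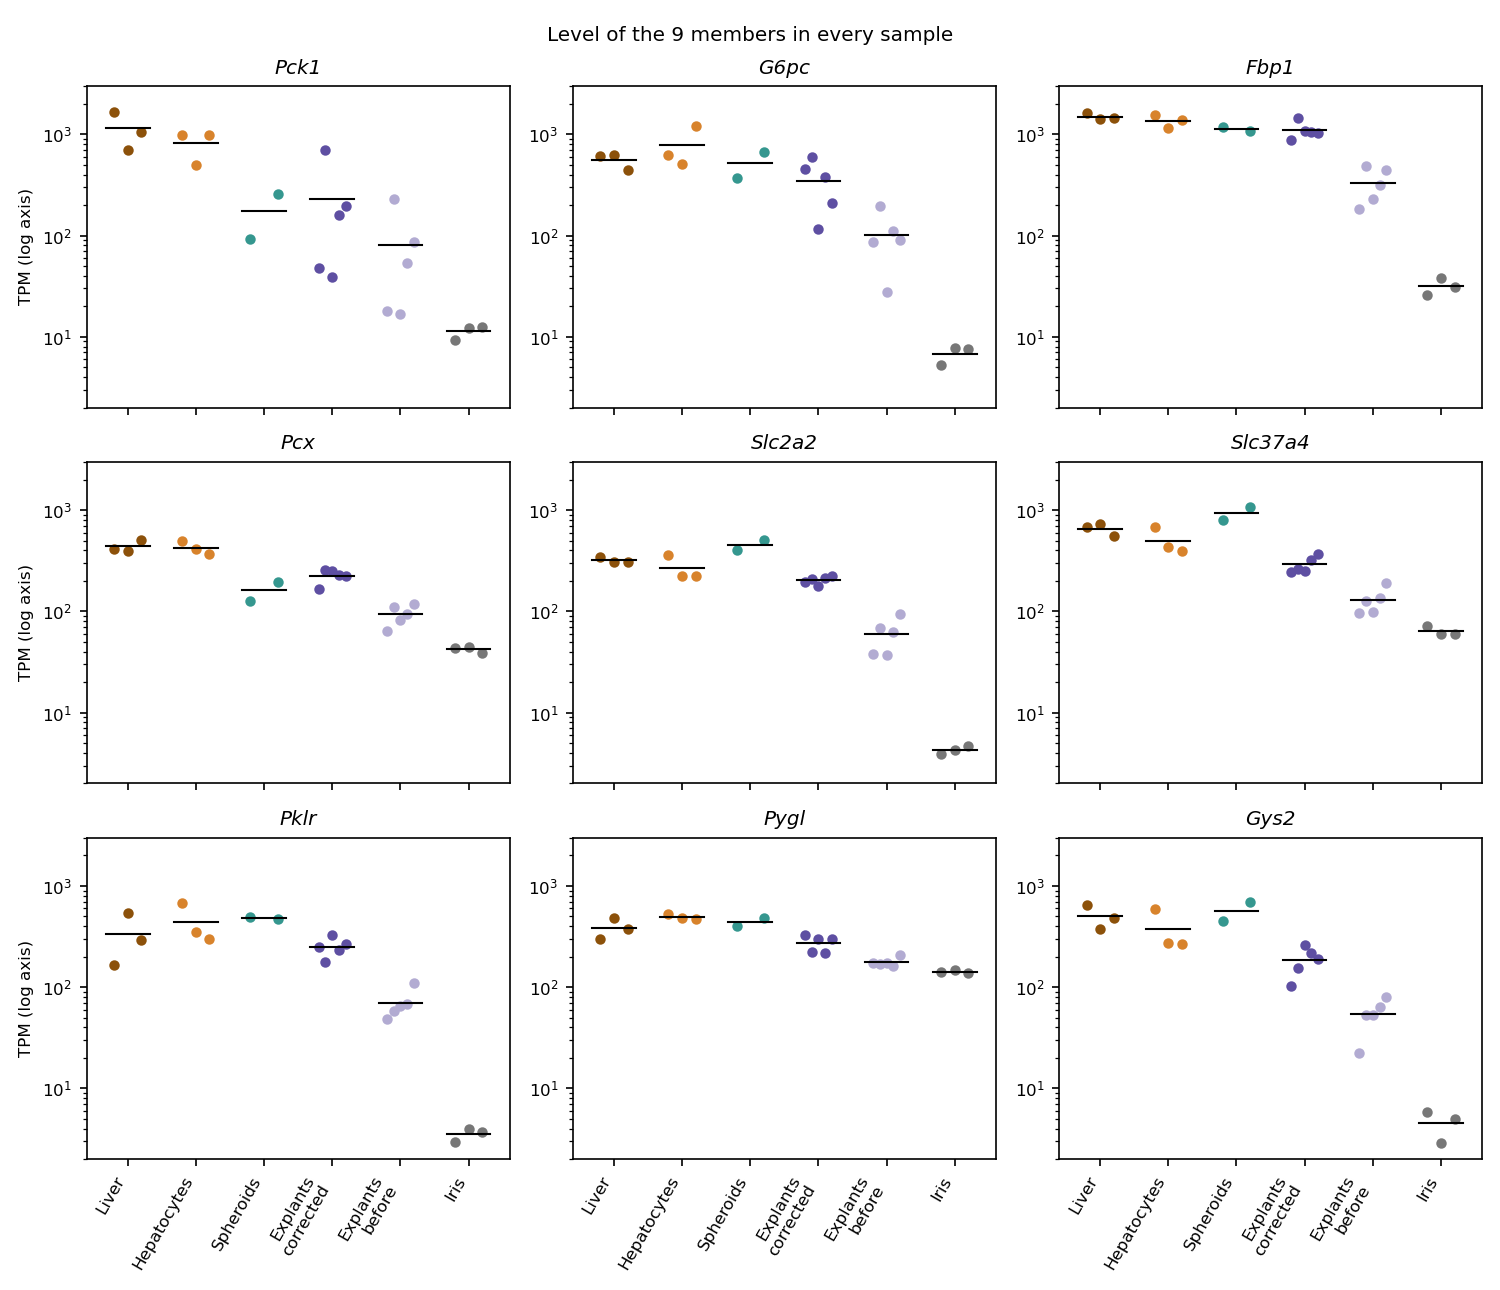
Level of each member in TPM (log axis) in every sample, by group, with explants shown after and before the iris subtraction. Each point is 1 sample and each black line a group mean; spheroids lie below livers and hepatocytes for Pck1 and Pcx, and above them for Slc37a4 and Slc2a2.

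The enzymes of the later steps, Fbp1 and G6pc, were not called in spheroids, although their log2 fold changes were negative in both comparisons. G6pc (chr11:101367561-101377903) was at 611, 623 and 446 TPM in livers, 626, 505 and 1203 in hepatocytes and 371 and 662 in spheroids, so that all ranges overlapped. Its log2 fold change in spheroids was -0.90 ± 0.46 against hepatocytes (adjusted p = 0.188) and -0.21 ± 0.30 against liver (adjusted p = 0.619).

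Fbp1 (chr13:62864753-62888282) was the member with the highest mean TPM in livers. It was at 1611, 1425 and 1441 TPM in livers, 1542, 1162 and 1379 in hepatocytes and 1170 and 1082 in spheroids. The spheroids lay below every liver, at a log2 fold change of -0.53 ± 0.17 (adjusted p = 0.0469), which passes the p threshold but not the fold limit. Against hepatocytes it was -0.60 ± 0.22 (adjusted p = 0.0789).

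For the transporters, the spheroid levels were above all liver and hepatocyte levels. Slc37a4 (chr9:44398176-44402963) was at 804 and 1076 TPM in spheroids, against 689, 723 and 554 in livers and 675, 433 and 391 in hepatocytes. Slc2a2 (chr3:28697903-28731359) was at 406 and 506 TPM in spheroids, against 348, 308 and 309 in livers and 363, 223 and 225 in hepatocytes. Neither gene passed the test: the log2 fold change against hepatocytes was 0.61 ± 0.29 for Slc37a4 (adjusted p = 0.161) and 0.45 ± 0.28 for Slc2a2 (adjusted p = 0.282).

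Pklr (chr3:89136142-89146784) was at 496 and 468 TPM in spheroids, within the span of the livers (167, 539 and 291) and of the hepatocytes (675, 349 and 300). In the count files, 711 of the 3236 exon bases of Pklr overlap Hcn3 on the opposite strand. Reads there were counted to both genes, since counting ignored strand and allowed overlaps, so Pklr and Hcn3 values are not separate measurements.

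Among the glycogen enzymes, Gys2 (chr6:142422613-142473109) was at 451 and 692 TPM in spheroids, 646, 375 and 483 in livers and 591, 274 and 265 in hepatocytes. Pygl (chr12:70190811-70231488) was at 401 and 483 TPM in spheroids, 302, 478 and 375 in livers and 532, 484 and 466 in hepatocytes. Both genes overlapped between spheroids and liver, with log2 fold changes of 0.09 ± 0.29 and 0.08 ± 0.25.

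**Figure D2:**
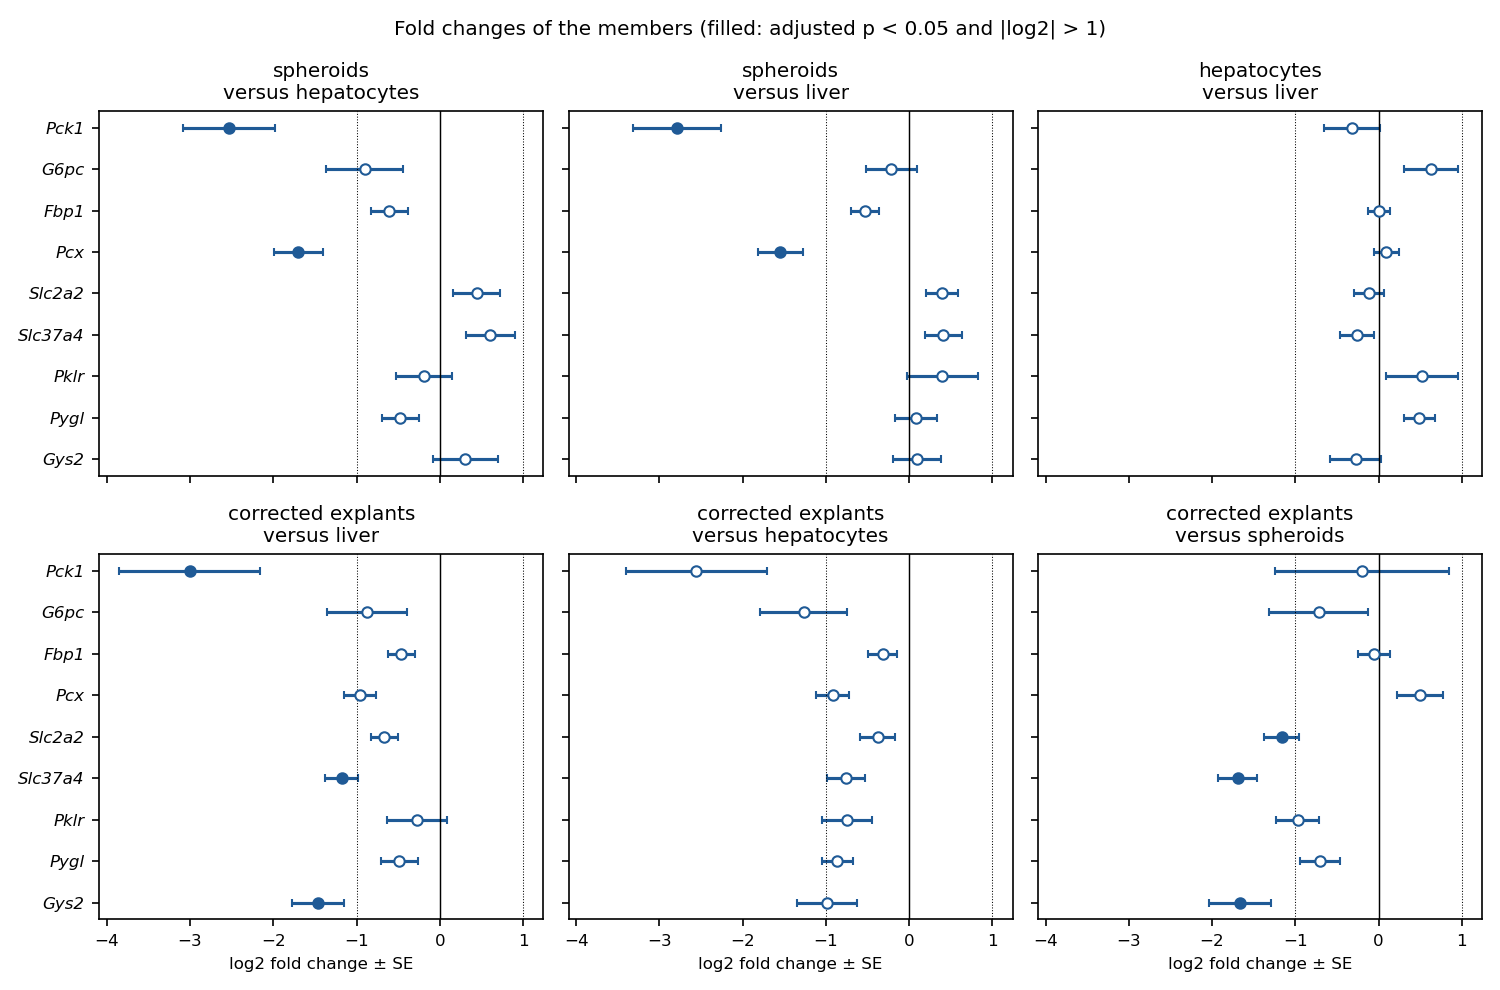
Log2 fold change of each member (horizontal axis, points with SE bars) in 6 comparisons, with filled points for calls and dotted lines at the fold limit of 1. The upper panels are edgeR fits of counts and the lower panels limma fits of log2(TPM + 1); Pck1 and Pcx are filled in both spheroid panels, and no point is filled in hepatocytes against liver or in corrected explants against hepatocytes.

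Hepatocytes were also compared with liver. The 2 groups differ in isolation and in the cells they hold, and their samples were not paired, so these cannot be told apart. No member was called by edgeR or by DESeq2, 1 had an unadjusted p under 0.05 (Pygl, log2 fold change 0.49 ± 0.18, adjusted p = 0.145), and no member had ranges of TPM that did not overlap. How many of all genes lacked overlap was not counted. Over the 12236 genes tested, 0.409% were called higher and 2.31% lower. Hepatocytes held less of the other liver cells by their markers, with 33.9 to 48.2 TPM of 6 cholangiocyte markers against 283 to 561 in livers, and 8.03 to 18.8 TPM of 6 stellate cell markers against 51.9 to 121.

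Within the livers, Pck1 and Pklr stood in reverse order. Liver 1 had the highest Pck1 and the lowest Pklr, liver 2 the lowest Pck1 and the highest Pklr. The ratio of Pck1 to Pklr TPM was therefore 9.95, 1.30 and 3.65 in livers 1, 2 and 3. It was 1.46, 1.44 and 3.28 in hepatocytes, and 0.1845 and 0.543 in spheroids, so that the ratio was above 1 in all 6 liver and hepatocyte samples and below 1 in both spheroids.

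In corrected explants this ratio was 0.192, 3.95, 0.120, 0.686 and 0.733 in explants 1, 2, 4, 5 and 6. Explant 2 alone lay among the livers and hepatocytes. The ratio divides 2 values of 1 sample and does not depend on a common scale, although it does depend on the iris subtraction.

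**Figure D3:**
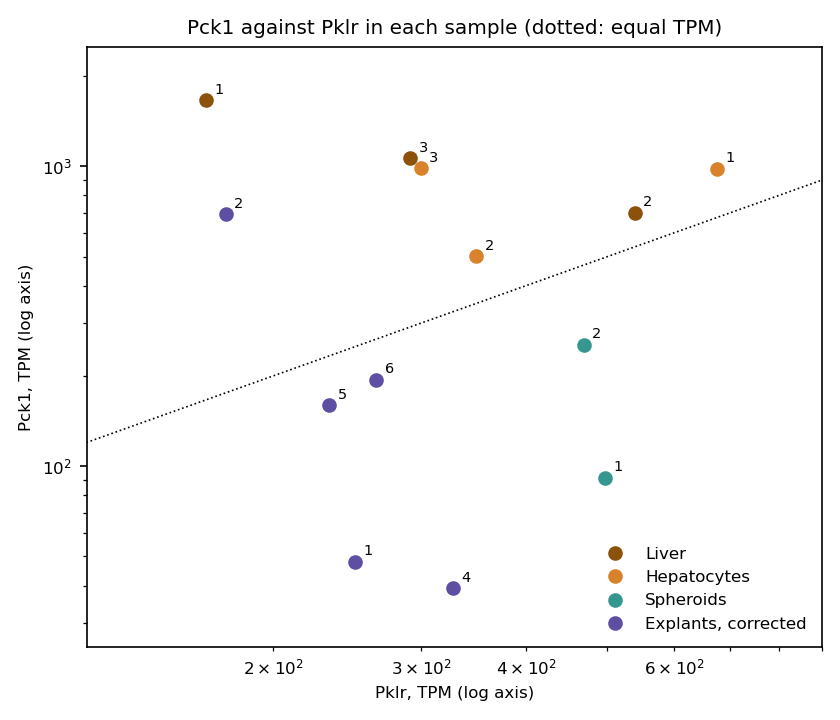
Pck1 TPM against Pklr TPM in each sample other than iris (both axes log; numbers are sample numbers; the dotted line marks equal TPM). All livers and hepatocytes lie above the line and both spheroids below it, and of the corrected explants only explant 2 lies above it, at 693 TPM of Pck1 and 176 TPM of Pklr.

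Naive iris held little of 6 members. Pck1, G6pc, Fbp1, Slc2a2, Pklr and Gys2 were at 3.56 to 31.5 TPM on average, under 3% of their liver mean. Pcx was at 42.1 ± 2.90 TPM (SD, n = 3), Slc37a4 at 63.6 ± 6.61 TPM and Pygl at 142 ± 4.94 TPM, or 9.62%, 9.70% and 36.8% of the liver mean.

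Before correction, all 9 members were higher in every explant than in every iris. The share of all genes that lay apart in this way was not counted, so nothing about the group is read from it. By edgeR, 7 members were called higher in explants and none lower, beside 6.16% and 0.316% of 16764 genes, and all 9 had an unadjusted p under 0.05. DESeq2 called 8. Pklr rose most, with a log2 fold change of 4.41 ± 0.38 (adjusted p = 0.000271), followed by G6pc at 4.01 ± 0.64 and Slc2a2 at 3.95 ± 0.42. Pck1, at 17.9, 230, 16.6, 53.0 and 86.5 TPM in explants 1, 2, 4, 5 and 6 against 9.28 to 12.6 in irises, had a log2 fold change of 2.97 ± 0.94 and missed the p threshold (adjusted p = 0.0697). Pygl passed it (adjusted p = 0.0417) with a log2 fold change of 0.43 ± 0.12, under the fold limit.

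The iris term took very different parts of the members' explant values. For Pygl it was 40.3% to 66.8% of the TPM before correction, for Slc37a4 19.7% to 54.2% and for Pcx 21.2% to 53.4%. For Pklr it was 1.89% to 6.09%. Pck1 ranged from 3.36% in explant 2 to 55.1% in explant 4, and its own level before correction ranged from 16.6 to 230 TPM.

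**Figure D4:**
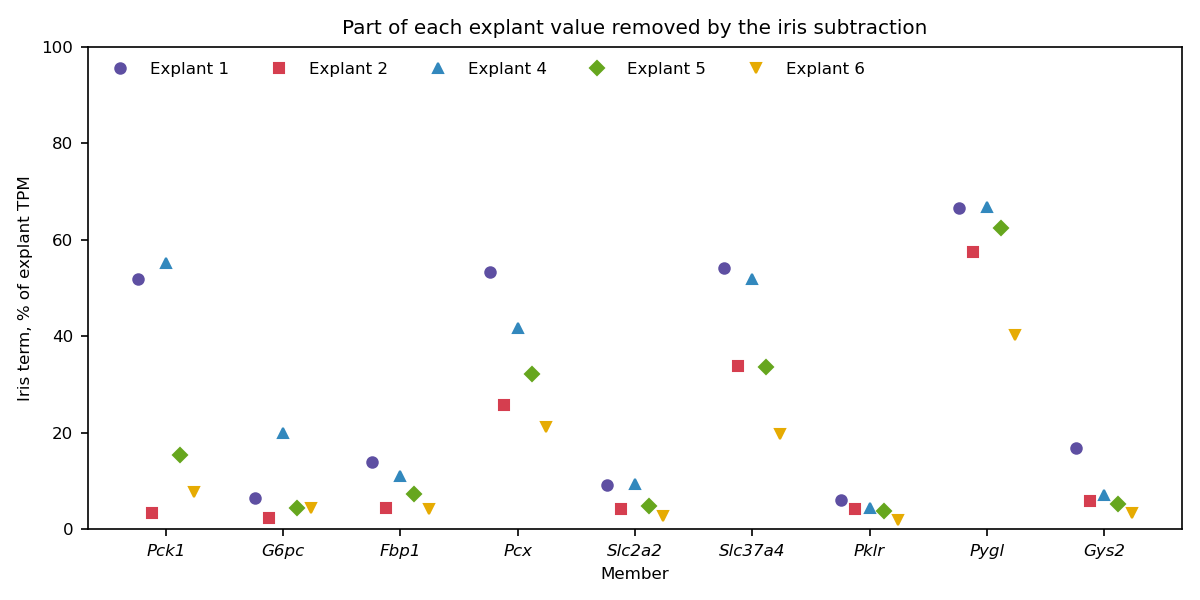
Part of each explant's TPM before correction that the iris subtraction removed, in percent, for each member (1 point per explant). Pygl, Slc37a4 and Pcx lost the largest parts, and Pck1 lost over 50% in explants 1 and 4 but 3.36% in explant 2.

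After correction, the explants varied in Pck1 more than in any other member. Explants 1, 2, 4, 5 and 6 were at 48.02, 693, 39.3, 160.0 and 195 TPM, an average of 227 ± 269 TPM (SD, n = 5) and 19.9% of the liver mean. Explant 2 was close to the lowest liver (700 TPM), while explants 1 and 4, those with the highest iris fractions, were below both spheroids. Their Pck1 rests on 113 and 117 counts, with more than 50% of the TPM subtracted.

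Against liver, Pck1 was lower in corrected explants by a log2 fold change of -3.003 ± 0.85 (adjusted p = 0.0424, limma on log2(TPM + 1)). The call was lost in 13 of 20 alternative fits, among them each fit that left out 1 liver and those that left out explant 1, 4, 5 or 6, and the adjusted p reached 0.233 over all alternatives. On counts of 165 genes with an iris level under 1% of liver, tested without subtraction, it was -1.52 ± 0.63 (adjusted p = 0.102). Iris RNA is still part of these counts, since the iris term was 51.8% and 55.1% of the Pck1 TPM in explants 1 and 4.

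Gys2 was the second member called lower against liver. Corrected explants were at 103, 156, 260, 216 and 188 TPM, all below the lowest liver of 375 TPM and the lowest hepatocyte sample of 265 TPM. The log2 fold change was -1.47 ± 0.31 (adjusted p = 0.0145). On counts of the genes low in iris it was -0.69 ± 0.26 (adjusted p = 0.0776), and it missed the thresholds without liver 1 or liver 3.

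Slc37a4 was the third. Corrected explants were at 245, 264, 251, 322 and 373 TPM, below every liver (554 to 723), with a log2 fold change of -1.18 ± 0.19 (adjusted p = 0.00518). The call held in 18 of 19 alternatives, the exception being the fit with the sample number as a block. From 19.7% to 54.2% of its explant TPM had been subtracted.

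Pcx and Slc2a2 passed the p threshold but not the fold limit. Pcx was at 167, 257, 250, 228 and 225 TPM in corrected explants, with a log2 fold change of -0.96 ± 0.20 (adjusted p = 0.0121). Slc2a2, the evenest member, was at 193, 207, 177, 215 and 222 TPM, with a log2 fold change of -0.66 ± 0.16 (adjusted p = 0.0246). Neither overlapped the livers.

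The other 4 members overlapped the livers in range, and the share of all genes that lay apart from the livers was not counted. G6pc was at 452, 591, 117, 375 and 209 TPM in corrected explants (log2 fold change -0.88 ± 0.48, adjusted p = 0.2497) and Fbp1 at 882, 1439, 1085, 1047 and 1032 (-0.46 ± 0.16, adjusted p = 0.0835). Pklr was at 250, 176, 328, 233 and 266 TPM (-0.27 ± 0.36, adjusted p = 0.604) and Pygl at 324, 223, 300, 219 and 302 (-0.48 ± 0.22, adjusted p = 0.173).

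In all, 3 of 9 members were called lower and none higher against liver, beside 3.01% and 11.8% of 21002 genes. All 9 differences were negative, with a median of -0.88, while the median over all genes tested was 0.61. The 12 hepatocyte markers summed to 21880 to 31090 TPM in corrected explants, above the 17220 to 19010 TPM of livers. Taken singly, 7 of the 12 were higher and 5 lower than in liver. None was called, although 10 had an unadjusted p under 0.05 by limma. Alb was at 177.3% and Apoa1 at 176.4% of the liver mean, while Hnf4a was at 53.15% and Tat at 49.74%. The 6 macrophage markers summed to 364 to 1239 TPM against 280 to 377 TPM in livers. Singly, 3 of them were higher and 3 lower than in liver, with 3 called higher and 1 called lower. The 6 stellate cell markers summed to 463 to 798 TPM against 51.9 to 121 TPM in livers and 279.8 to 332.5 TPM in irises, with Lrat at 0. The 6 cholangiocyte markers summed to 618 to 1407 TPM against 283 to 561 TPM in livers and 925 to 1041 TPM in irises. Both lists were higher in iris than in liver, so their sums do not tell liver cells from remaining iris RNA. The part of these cell types, or of iris RNA left after the subtraction, in the differences was not tested. With each sample centered on its median gene, 8 members were called lower, and the share of calls that were higher went from 79.6% to 32.02% over all genes.

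Against freshly isolated hepatocytes, no member was called in corrected explants by limma, beside 3.28% of 20726 genes called lower and 15.7% higher. Yet 7 members had an unadjusted p under 0.05. Pcx (-0.92 ± 0.20, adjusted p = 0.0112), Pygl (-0.87 ± 0.19, adjusted p = 0.0113) and Slc37a4 (-0.76 ± 0.23, adjusted p = 0.0480) passed the p threshold and missed the fold limit. Centered on the median gene, all 9 were called lower, and without explant 2 or without hepatocyte sample 3 there was 1 call.

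Against the spheroids from which such grafts are made, 3 members were called lower and none higher, beside 0.957% and 5.00% of 21217 genes. They were Slc37a4 (-1.69 ± 0.24, adjusted p = 0.00679), Slc2a2 (-1.16 ± 0.21, adjusted p = 0.0177) and Gys2 (-1.66 ± 0.37, adjusted p = 0.0384). All 5 explants lay below both spheroids in each. With either spheroid sample left out no member was called, and the remaining sample is then assumed to vary like the explants. Gys2 was also called on counts of the genes low in iris, at -1.80 ± 0.26 (adjusted p = 0.000755, edgeR), but its call was lost in 9 of 19 alternatives, among them the deposited values, iris fractions by non-negative least squares and the fits without explant 2, 5 or 6.

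The members that were low in spheroids did not differ detectably between spheroids and explants. Pck1 had a log2 fold change of -0.20 ± 1.04 (adjusted p = 0.918) and Pcx of 0.50 ± 0.28 (adjusted p = 0.385), the only member with a positive value. The sign of both turned in some alternative fits. The 3 comparisons of corrected explants share the same 5 explants.

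By mean TPM, the order of groups for Pck1 was liver, hepatocytes, corrected explants, spheroids and iris, and only spheroids and iris did not overlap among neighbors. The place of corrected explants above spheroids rests on explant 2: their median of 160.0 TPM was below the spheroid mean of 173 TPM. For Slc37a4 it was spheroids (940 ± 193 TPM), liver (655 ± 89.3), hepatocytes (500 ± 153), corrected explants (291 ± 55.1) and iris, with overlap only between liver and hepatocytes. For all 9 members, iris was lowest and did not overlap the next group, but the share of all genes with this order was not counted.

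Liver and other tissues use different genes for many of these steps, so the liver form was also given as a share of the TPM of its family. The liver isoform held 98.6% ± 0.476 of carboxykinase TPM (Pck1 against the mitochondrial Pck2) in livers, 99.3% ± 0.660 in hepatocytes, and 50.5% and 89.7% in the spheroids. Spheroid Pck2 was at 89.9 and 29.4 TPM against 1.32 to 14 in hepatocytes, so that the sample with the lower Pck1 had the higher Pck2. For pyruvate kinase (Pklr against Pkm), the share was 71.1% to 92.8% in livers, 89.8% to 95.7% in hepatocytes, 75.8% and 84.7% in spheroids and 0.437% ± 0.0588 in irises.

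At other steps the liver form held most of the TPM in spheroids. Gys2 held 98.0% and 99.5% of glycogen synthase TPM, and Slc2a2 91.9% and 96.3% of the 4 glucose transporters. In corrected explants the shares were lower and wider, at 35.4% to 68.8% for Slc2a2 and 38.9% to 67.3% for Pygl. Other forms of these 2 families are high in iris, with Slc2a1 at 642 TPM, Pygm at 180 and Pygb at 177. The 6 pigment cell markers summed to 250 to 3911 TPM in corrected explants against 554 to 566 in livers, with 4 higher, 2 lower and none called. How far iris RNA left after the subtraction enters these shares was not tested. The Fbp1 share was over 99% in every group, iris included (100%), and so does not tell the groups apart.

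**Figure D5:**
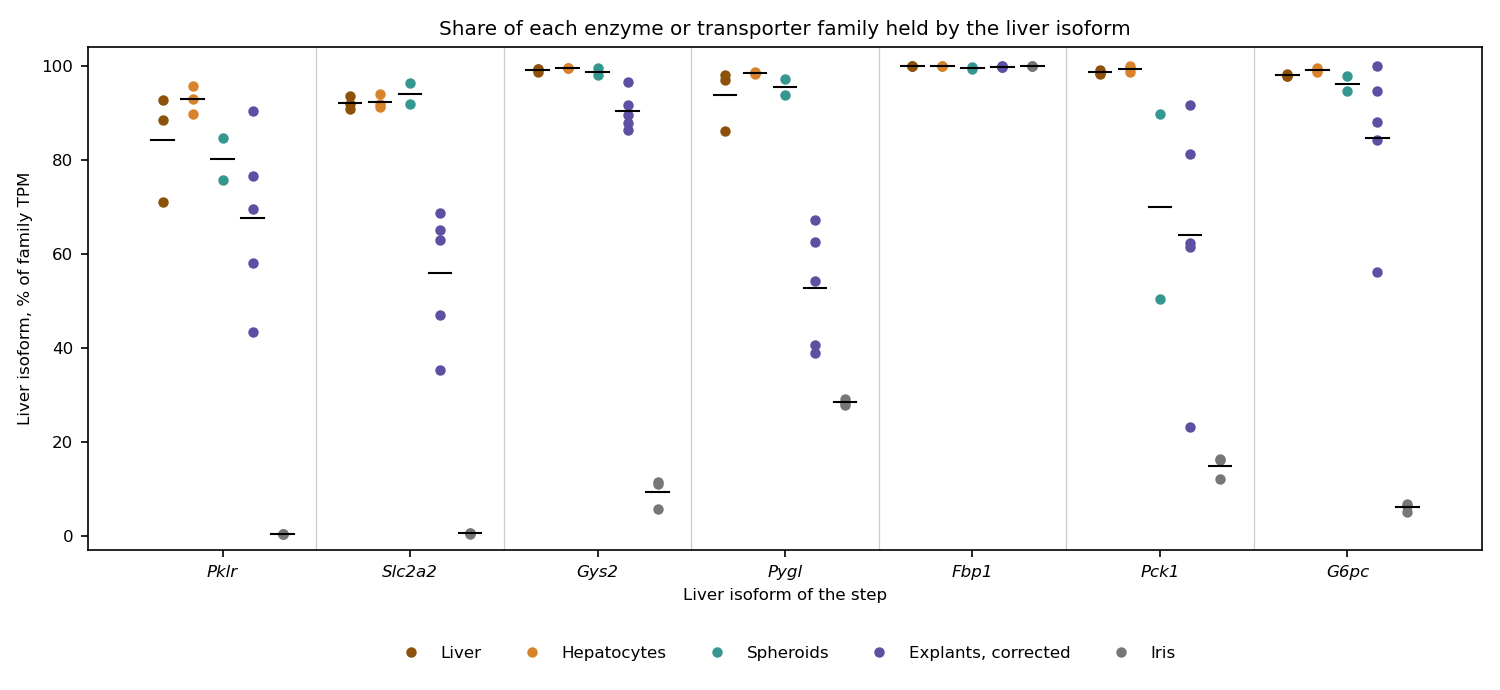
Share of family TPM held by the liver isoform at the 7 steps whose liver isoform is a member, in percent, for each sample (points) with group means (black lines). Livers, hepatocytes and spheroids lie close together at most steps, and Pck1 in spheroids spans 50.5% to 89.7%. Corrected explants lie lower for Slc2a2 and Pygl, families with other isoforms that are high in iris.

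The rest of the pathway was read from lists of named genes. Of 15 non-liver isoforms tested in spheroids against hepatocytes, 5 rose and 1 fell, beside 8.13% and 9.11% of all genes, with a median of 0.99. Pkm rose by 1.65 ± 0.24 (adjusted p = 0.00277), Pck2 by 2.92 ± 0.75 (adjusted p = 0.0265), Hk3, a hexokinase of myeloid cells, by 2.36 ± 0.54, Pygb by 1.31 ± 0.33 and G6pc3 by 1.19 ± 0.32, while Aldoc fell by 1.22 ± 0.24 on the log2 scale. Macrophage markers (6 genes) summed to 477 and 515 TPM in spheroids against 114 to 205 in hepatocytes and 280 to 377 in livers. By log2 fold change, 5 of them were higher and 1 lower than in hepatocytes, and 4 higher and 2 lower than in livers. Cholangiocyte markers (6 genes) summed to 95.3 and 366 TPM in spheroids against 33.9 to 48.2 in hepatocytes. The part of either cell type in these rises was not tested. Against liver, 3 of 17 rose (Pkm, Pck2 and Pfkfb2) and none fell by edgeR, beside 8.24% and 11% of all genes. Of these 17, 8 had an unadjusted p under 0.05, and DESeq2 gave 4 calls on the list.

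Around glycogen, 1 of 14 other genes rose and 2 fell in spheroids against hepatocytes, and 3 rose and 2 fell against liver. Over all genes, 8.13% rose and 9.11% fell against hepatocytes and 8.24% and 11% against liver, so nothing is read from these counts about the list. Pgm2 rose in both (2.14 ± 0.33 and 1.57 ± 0.33), and the branching enzyme Gbe1 (1.22 ± 0.28, adjusted p = 0.0155) and Ugp2, which makes UDP-glucose (1.01 ± 0.20, adjusted p = 0.00870), rose against liver. Epm2a fell by 2.52 ± 0.57 against hepatocytes and by 2.39 ± 0.75 against liver. It had only 3 and 5 counts in the spheroids, 13 to 23 in hepatocytes and 10 to 34 in livers. Ppp1r3c, which targets protein phosphatase 1 to glycogen, fell by 3.22 ± 0.57 against hepatocytes and by 2.45 ± 0.62 against liver. A related targeting subunit, Ppp1r3g, was nearly lost: the spheroids had 1 and 2 counts, against 36 to 140 in hepatocytes and 73 to 130 in livers (adjusted p = 0.00275 and 0.000956).

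A list of 10 enzymes from Gpi1 to Mdh2 held shared steps of gluconeogenesis and glycolysis, with lactate (Ldha, Ldhb) and malate (Mdh1, Mdh2) dehydrogenases added. It gave no call in spheroids by edgeR or DESeq2 against either group, with 4 and 5 genes at an unadjusted p under 0.05. Among 8 further liver isoforms, Ppp1r3g was the only call against hepatocytes. Over all genes, 8.13% were called higher and 9.11% lower against hepatocytes, and 8.24% and 11% against liver.

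Of the hormonal and transcriptional regulators, 4 of 19 fell and none rose against hepatocytes (9.11% and 8.13% of all genes), with 8 at an unadjusted p under 0.05 and 4 DESeq2 calls, and against liver 6 of 18 fell and 1 rose (11% and 8.24% of all genes). Cebpa, a factor that drives hepatocyte gene expression, fell by 2.70 ± 0.26 against hepatocytes (adjusted p = 0.000668) and by 2.83 ± 0.23 against liver, from 193 ± 25.3 TPM in liver to 29.8 ± 8.45 TPM. Klf15, a factor of the fasting response, fell by 1.03 ± 0.29 and 1.12 ± 0.19. Mlxipl and Irs2 (3 counts in either spheroid) fell against hepatocytes, and Irs1, Ppargc1a, Crtc2 and Sik1 against liver. Mlxipl was at 33.3 and 82.5 TPM in spheroids, against 92.2 to 113 TPM in hepatocytes and 29.4 to 79.2 TPM in livers. It was not among the calls against liver. Igfbp1, which insulin represses, rose against liver by 3.34 ± 0.74 (adjusted p = 0.0139), to 1456 and 1458 TPM against 42.8 to 315 TPM. The glucagon receptor Gcgr was at 456 and 509 TPM in spheroids and at 372 to 427 TPM in livers, and was not called. The list medians were -0.72 and -0.88, beside 0.01 over all genes. In hepatocytes against liver, none of these 5 lists held a call by edgeR, with 1 to 6 genes a list at an unadjusted p under 0.05 and at most 1 DESeq2 call.

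In corrected explants against liver, 9 of 19 non-liver isoforms rose and none fell by limma (11.8% and 3.01% of all genes), with 10 at an unadjusted p under 0.05. They included Hk1 (3.63 ± 0.51), Pygb (3.15 ± 0.53), Slc2a1 (2.56 ± 0.46) and Pygm (4.63 ± 0.82, the muscle phosphorylase). These genes are high in iris (Hk1 84.9 ± 10.1 TPM, Slc2a1 642 ± 51.8 TPM), and 6 iris muscle markers still summed to 302 to 1273 TPM in corrected explants against 146 to 163 TPM in livers. How far iris RNA left after the subtraction enters these values was not tested.

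Cebpa was low in corrected explants too, at 47.5 ± 13.6 TPM (log2 fold change -2.04 ± 0.29, adjusted p = 0.00302 against liver), as was Klf15 (-1.48 ± 0.34, adjusted p = 0.0190). Ppp1r3g was set to 0 in all 5 by the subtraction, with 2 to 5 counts before it. Of the 10 enzymes from Gpi1 to Mdh2, Mdh1 (-1.65 ± 0.42) and Eno1 (-1.33 ± 0.39), which may lose reads to a near-identical copy, fell, and the list median was -1.25. Over all genes, 3.01% were called lower. Mdh1 averaged 601.4 TPM in iris, 696.0 in liver and 511.6 in explants before correction. Eno1 averaged 156.6, 117.5 and 128.8 TPM in the same order. How far the iris subtraction enters these falls was not tested. Against spheroids, Gbe1 (-2.34 ± 0.47, adjusted p = 0.0260), Ugp2 (-1.80 ± 0.31), Gcgr (-1.19 ± 0.20) and Igfbp1 (-2.60 ± 0.38) fell. Of 20 non-liver isoforms, 6 rose and none fell in that comparison, beside 5.00% and 0.957% of all genes.

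Before correction, explants against iris gave the liver genes of the same lists: 5 of 7 further liver isoforms rose, and 6 of 18 regulators, among them Gcgr (4.15 ± 0.44) and Cebpa (1.81 ± 0.37). Over all genes, 6.16% were called higher and 0.316% lower. Of 19 non-liver isoforms 1 rose (Hk3, 3.21 ± 0.87), and of 18 other glycogen genes 1 rose (Stbd1). Of the 10 enzymes from Gpi1 to Mdh2 none was called by edgeR or DESeq2, with 7 at an unadjusted p under 0.05.

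The genes most like each member were taken by Pearson's r of log2(TPM + 1) over the 13 samples of livers, hepatocytes, spheroids and corrected explants, among 12978 genes. These samples fall into 4 groups, so r describes shared differences between groups and carries no test. Pck1 was most like Etnppl (r = 0.95), Slc38a4 (0.94) and Gpt (0.94), and Pcx was most like Agmat, Car5a and Slc17a2 (each 0.96). Fbp1 was most like Txndc5, Sds and Mat1a (0.90 to 0.92) and G6pc like Zbtb48, Rfesd and Tob1 (0.85 to 0.88). Slc37a4 was most like Slc66a2, Wee1 and Adk (0.92 to 0.94), Slc2a2 like Osbpl1a, Rhobtb1 and Plin5 (0.90 to 0.91) and Gys2 like Ankrd28, Acadm and Vkorc1l1 (0.91 to 0.92). For Pygl these were Gm35986, Gm27010 and Rab9 (each 0.91). The gene nearest to Pklr was Hcn3 (0.96), which shares its reads, followed by Rassf6 (0.86) and TrnN (0.84).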

How the data were processed

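Counts, TPM and iris-corrected values were deposited by the authors. Per the labels and file headers, reads were aligned with TopHat2 to mm10, duplicates removed with SAMtools, and whole-read counts per gene made with featureCounts 1.4.6-p5 over exons, unstranded, with reads given to every gene they overlapped and multi-mapping reads left out. The authors computed TPM from the summed counts. The corrected table holds TPM for livers, hepatocytes and spheroids. Its explant columns hold a score that the authors made from TPM by subtracting iris, with fractions from CIBERSORT. Here the 3 technical libraries of each of 16 samples were summed (48 libraries). The deposited sums and TPM were returned exactly, and no 2 samples held identical counts. The subtraction formula returned 100% of genes in 4 explants but 16.3% in explant 4 (tolerance 0.001 TPM), so it was applied anew to all 5, with negative values set to 0. The 92 spike-in rows, 418 counts in all, were left out.

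For counts, the quasi-likelihood test of edgeR 4.0.16 was run on the 2 groups of each comparison after filterByExpr and TMM scaling, and corrected explants with limma 3.58.1 (trend) on log2(TPM + 1) of genes with a mean of at least 1 TPM, in R 4.3.3, with Benjamini-Hochberg adjustment over all genes tested. A fold change on that scale understates the change of low genes. DESeq2 1.42.0 and the other alternatives are given in the closing section. Scripts were tested on simulated data. Removal of duplicates by position alone would cap the reads that can start at a base. The study's reporting summary also lists a tool that removes duplicates by molecular barcode, and which step shaped these counts was not tested. Members reached at most 0.817 counts per base in a library, against 1.70 for the highest gene. Coordinates are mm10 from the count files. Symbols came from the corrected table, and promoters of 8 of 9 members from RefSeq (GRCm38.p6).

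Results for some genes of the lists are not reported here. The members, lists, motifs and tests were chosen with earlier results of these data known. Named genes are the 9 members, the genes of the fixed lists and, for each member, the 3 genes most like it. Sample numbers shared between groups were not taken to pair the samples. The deviations of same-numbered hepatocytes and livers, the comparison with 3 pairs, correlated at 0.11, 0.07 and -0.01. Where groups shared 2 numbers, correlations ran from -0.11 to 0.23, highest for explants and spheroids (0.23 and 0.12). Python 3.11.15 with NumPy, pandas and Matplotlib was used for the rest.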

Additional observations from a re-analysis of the deposited data

Results flagged for a closer look

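Among the 18 sets of 5 explant values examined (9 members, before and after correction), 2 held a sample farther from the rest than Dixon's 95% critical value of 0.71. Chance alone gives about 1 in 20 such sets if they are independent and normally distributed. The 18 sets share the same 5 explants and were examined as TPM, not on a log scale, so that rate is only a guide. Pck1 in corrected explants was at 693.5 TPM in explant 2 against 39.3 to 195 TPM in the other explants, a gap of 0.763 of the range. Pygl before correction was at 207.6 TPM in explant 6 against 164 to 175 TPM in the others, a gap of 0.749 of the range.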

How the results depend on the processing

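The 2 calls in spheroids against hepatocytes and the 2 against liver were returned under every alternative run, leave-one-out fits included (2 to 2), and hepatocytes against liver stayed at 0 (0 to 0). Explants against iris gave 7 calls, and 6 to 8 with 1 sample left out. Corrected explants against liver gave 3 calls, but 9 with TPM before correction, 0 with edgeR on genes low in iris (2 members testable), 5 without the fold limit, 8 with each sample centered on its median gene (chosen after seeing the data) and 0 with the sample number as a replicate block. Leaving out 1 sample gave 1 to 4, with 1 without liver 1 and 1 without liver 3. Against hepatocytes the 0 calls became 1 with the deposited corrected values, 9 before correction, 3 without the fold limit and 9 when centered, and 0 to 1 with a sample left out. Against spheroids the 3 calls became 1 with the deposited values, 7 before correction, 1 with edgeR on genes low in iris, 0 without the intensity trend and 5 when centered, and 0 to 4 with a sample left out. The causes were not tested. Sample numbers were not taken to pair the groups, and the replicate block changed no count by over 1.5 times other than that against liver.

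Over the members' log2 fold changes, 956 alternative values kept direction and side of the thresholds, 56 newly passed, 40 no longer passed and 34 changed sign. In spheroids against hepatocytes, Pklr became 0.058 by library size alone and ranged from -0.36 to 0.25 with 1 sample left out (highest without hepatocyte sample 1), and Gys2 from -0.18 (without spheroid sample 2) to 0.78. Against liver, leave-one-out values ran from -0.85 to 0.21 for G6pc (highest without spheroid sample 1), from -0.21 to 0.28 for Pygl (-0.10 without liver 1) and from -0.40 to 0.44 for Gys2 (-0.069 without liver 2). In hepatocytes against liver, Pck1 ran from -0.55 to 0.0075 (without liver 1) and Slc2a2 from -0.37 to 0.020 (without hepatocyte sample 2). Pcx became -0.0155 by library size alone and -0.016 without hepatocyte sample 1. Fbp1 became -0.11 by library size alone, -0.030 with at least 10 counts in every sample, -0.033 in library a alone, -0.054 with the read start limit undone and -0.00079 with the replicate block. With 1 sample left out, Fbp1 ran from -0.074 to 0.13 (also -0.011, -0.0017 and -0.0097). In corrected explants against liver, Pklr ran from -0.69 to 0.16 (without liver 2). Against spheroids, Pck1 became 0.33 with edgeR on genes low in iris, 0.26 with the replicate block, 0.16 without explant 1, 0.23 without explant 4 and 0.53 without spheroid sample 2, with -0.93 as the lowest value with a sample left out. G6pc became 0.061 with the replicate block. Fbp1 became 0.086 with iris fractions by non-negative least squares, 0.0018 with the replicate block, 0.019 without explant 1 and 0.00095 without spheroid sample 1, with -0.16 as the lowest. Pcx became -0.77 before correction and -0.42 when centered.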
